A study of Caenorhabditis elegans with 245 samples.

Results

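The F1 adult females described here were daughters of *rnst-2* mutant males, and their mRNA was set against that of F1 adult females sired by WT males. They are 6 of the 245 libraries of the series, picked out by their labels: 3 of rnst-2-sired and 3 of WT-sired females. The labels give the daughters of mutant sires as *rnst-2(pen4)/+;fog-2* and the controls as *fog-2*, and each RNA sample pooled whole young adult animals kept from mating. The mothers were *fog-2* in both crosses. A loss of *fog-2* leaves XX animals without sperm of their own, so that they are females, and it is carried by all 6 libraries. By those labels the daughters of mutant sires carried 1 mutant copy from the father, and what a sire passes on outside the DNA and what the inherited copy itself does cannot be told apart. *pen4* replaces a catalytic residue of RNST-2 in a locus that also carries a gfp tag. The names of the control sires were not the same in both places that give them: the labels read as WT *fog-2*, while a second header line of the deposited table names the same columns after a heterozygous catalytic mutant. The mutant sires are also named in more than 1 way: the labels and that header line give the catalytic mutant, while a legend in the study gives males homozygous for a deletion of *rnst-2*. Neither difference was settled here, and the group names below follow the labels.

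RNST-2 is the worm's member of the RNase T2 family, ribonucleases of the lysosome that take part in breaking down ribosomal RNA, and the study asked whether its loss in males bears on small RNAs of sperm and on traits of the next generation, survival of heat shock among them. Since adult F1 animals were profiled, the comparison asks which transcripts of a daughter vary with the genotype of her father. The residue that *pen4* changes (H60A, counted from the first residue of the protein) lies in the first of 5 coding exons of a protein of 279 residues. The reference bases around it are shown because they hold the change of the allele that the labels name, at V:1061762-1061788 on the + strand of WBcel235, with the codon of the histidine in capitals.

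rnst-2: caatggtcaattCACggattgtggcca

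The gene itself had 15.1, 12.9 and 13.2 TPM (transcripts per 1000000 transcripts) in rnst-2-sired females, against 18.8, 18.1 and 21.1 TPM in WT-sired females. The groups did not overlap, but the difference did not pass the test (log2 fold change −0.47, SE 0.13, adjusted p = 0.0594 by limma, n = 3 each). In F1 males *rnst-2* had 22.3, 21.02 and 22.2 TPM when sired by *rnst-2* mutants, against 25.8, 36.4 and 44.3 TPM when sired by WT males, again without overlap.

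By markers of sperm and of early embryos the libraries were those of unmated females. Summed over 87 genes of sperm, levels were 79.0, 74.7 and 70.4 TPM in rnst-2-sired and 58.2, 70.3 and 74.5 TPM in WT-sired females, while the same genes reached 221863 to 269586 TPM in the F1 males. Genes first transcribed in early embryos summed to 4.7 to 7.1 TPM in rnst-2-sired and to 2.7 to 5.5 TPM in WT-sired females. A list of 16 male and seminal genes was not absent from females. It summed to 722.8, 517.4 and 403.1 TPM in rnst-2-sired and 449.0, 458.3 and 483.6 TPM in WT-sired females, which overlapped. In F1 males it reached 1227.1 to 1565.9 TPM. Library 3 of the rnst-2-sired females stood apart. Across genes on log2(TPM + 1), its Pearson correlations with the other 5 libraries were 0.833 to 0.874, while those 5 correlated with each other at 0.953 to 0.971. It held 26918.7 TPM of rRNA genes, against 204.7 to 604.3 TPM in the other 5, and 20766.4 TPM of small nucleolar RNA genes, against 1373.6 to 1970.7 TPM. TPM is a share of each library's total, so the deposited values keep no sequencing depth and no interval of counting error can be given.

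More transcripts were detected in the daughters of mutant sires, and far more genes passed the test upwards than downwards. Genes above 0 numbered 15407, 15499 and 15459 in rnst-2-sired females, against 13795, 14263 and 14137 in WT-sired females, with no overlap, and whether depth differed is not known. Of the 7635 genes that averaged 5 TPM or more, 527 were higher in rnst-2-sired females (6.9%) and 21 were lower (0.275%) at an adjusted p under 0.05. In all of these 527 and 21 genes the groups did not overlap, a pattern that 35.2% of all genes tested showed upwards and 4.27% downwards. The test on these same libraries picked the genes, so their lack of overlap is not separate support. Most calls were small shifts of genes at modest levels: 457 of the 527 averaged less than 100 TPM, the median log2 fold change of the 527 was 0.67, and 59 of them exceeded 1. On the X chromosome 25 of 731 genes rose (3.42%), against 6.55% to 8.18% on the autosomes, a difference that was not tested.

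The size of a change, and for small changes its sign, depended on the scale, which bears on each gene and list below. The median log2 fold change of all genes tested was 0.22 in TPM, and 75.3% of them lay above 0. The shift followed transcript level: among nuclear protein-coding genes the median was 0.28 for the 1415 genes between 5 and 10 TPM, 0.23 for the 2016 genes between 30 and 100 TPM, 0.01 for the 289 genes between 300 and 1000 TPM, and −0.24 for the 177 genes of at least 1000 TPM. It was −0.17 in the 105 of those 177 that do not code for ribosomal proteins. Rescaling each library by the median of its ratios to the geometric mean of each gene over libraries (median-of-ratios scaling) moved the median of all genes to −0.05. On that scale 3 genes passed the test as higher (0.0395%) and none as lower (0.0%), with 803 genes higher and 1212 lower at an unadjusted p under 0.05, and 233 higher and 450 lower at an adjusted p under 0.1. The groups still did not overlap in 455 of the 527 higher genes and in all 21 lower ones, against 14.4% and 19.7% of all genes on that scale. The genes had been picked on the same libraries, so these counts lend the calls no support. Leaving out any 1 of the 6 libraries left 0 to 12 genes higher and 0 to 2 lower, so a call below states what the 6 libraries gave together in TPM.

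**Figure D1:**
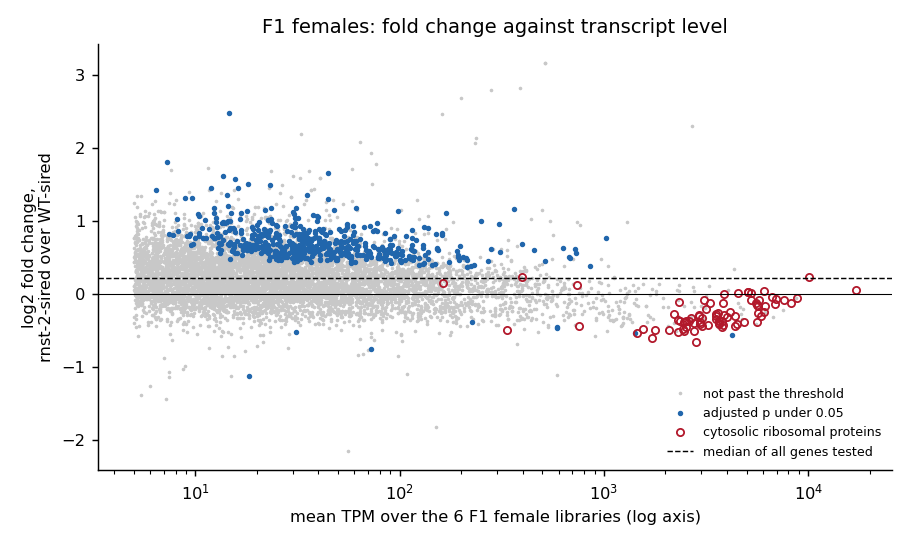
Log2 fold change of rnst-2-sired over WT-sired F1 females (vertical axis) against mean TPM over the 6 female libraries (horizontal log axis) for the 7449 genes tested that were above 0 in every library; blue points passed an adjusted p under 0.05, red circles are cytosolic ribosomal proteins, called or not, and the dashed line is the median of all genes tested, 0.22. Genes past the threshold at low and middle levels mostly lie above the line, and nearly all ribosomal proteins above 1000 TPM lie below it.

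Transcripts of cytosolic ribosomal proteins, the protein components of the translating ribosome, were lower in rnst-2-sired females. Of 77 such genes tested 12 fell, against 0.275% of all genes, and none rose, against 6.9%. In 51 every rnst-2-sired library lay below every WT-sired one, against 4.27% of all genes. Both downward shares were larger among highly expressed genes. Of the 177 nuclear protein-coding genes averaging at least 1000 TPM, ribosomal proteins among them, 14 were called lower and 88 did not overlap downwards. The 78 ribosomal protein genes listed summed to 304696, 304029 and 255247 TPM in rnst-2-sired females, against 345171, 331902 and 314289 TPM in WT-sired females. The means were 287990 ± 28359 and 330454 ± 15492 TPM (SD, n = 3 each). The rnst-2-sired libraries were all below the lowest WT-sired one, and library 3, which stood apart in its rRNA, was the lowest. The median log2 fold change of the 77 genes was −0.30, and it was −0.20 without that library and −0.58 under median-of-ratios scaling. Both subunits took part, with 9 of 46 large-subunit and 3 of 31 small-subunit genes called lower, against 0.275% of all genes. The study looked at *rpl-* and *rps-* genes as a group in these libraries, so their direction here is not independent evidence.

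The small-subunit gene *rps-5* had 2445.1, 2277.4 and 1839.2 TPM in rnst-2-sired females, against 3823.4, 3377.8 and 3085.6 TPM in WT-sired females (log2 fold change −0.65, SE 0.13, adjusted p = 0.0456). The large-subunit gene *rpl-20* had 1502.7, 1477.3 and 1127.8 TPM, against 2236.6, 1973.8 and 1971.2 TPM (−0.60, SE 0.13, adjusted p = 0.0459). *rpl-6* had 2253.1, 2234.9 and 1890.1 TPM in rnst-2-sired females, against 2944.9, 2823.8 and 2941.8 TPM in WT-sired females (−0.45, SE 0.09, adjusted p = 0.0456). For *rpl-13* library 3 was not the lowest: it had 4097.9, 4013.5 and 4545.4 TPM in rnst-2-sired females, against 5474.4, 5566.4 and 5343.9 TPM in WT-sired females (−0.37, SE 0.07, adjusted p = 0.0456). *rpl-4*, *rpl-17*, *rpl-19*, *rpl-24.1* and *rpl-28* fell by 0.48, 0.44, 0.41, 0.42 and 0.50 on the log2 scale. No group of these 9 genes overlapped with the other, and each adjusted p under median-of-ratios scaling was between 0.0932 and 0.0937. *rpl-41.1*, by contrast, had 734.8, 801.5 and 769.9 TPM in rnst-2-sired females, against 730.0, 749.3 and 638.9 TPM in WT-sired females, which overlapped.

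**Figure D2:**
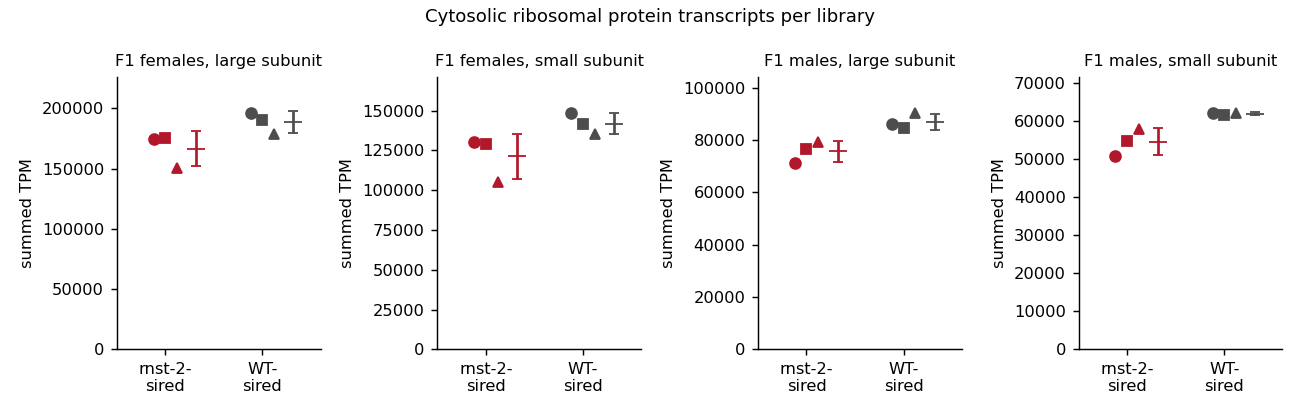
Summed TPM of large- and small-subunit cytosolic ribosomal protein genes in each F1 female and F1 male library (symbols, 1 per library; bars are mean ± SD, n = 3), rnst-2-sired left of WT-sired in each panel. In females the large-subunit sums were 150337 to 175367 TPM, against 178963 to 196514 TPM, and the small-subunit sums 104909 to 130144 TPM, against 135325 to 148658 TPM; the males show the same order.

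Among 40 translation factors none passed the test, against 6.9% of all genes called higher and 0.275% lower. Of the 40, 10 did not overlap downwards, against 4.27% of all genes, and 10 did not overlap upwards, against 35.2%. Their median log2 fold change was −0.03 in TPM and −0.31 under median-of-ratios scaling, where 21 did not overlap downwards, against 19.7% of all genes. The elongation factor gene *eef-2*, which drives translocation of the ribosome, had 1030.5, 1220.5 and 909.8 TPM in rnst-2-sired females, against 1281.7, 1396.3 and 1527.8 TPM in WT-sired females (adjusted p = 0.0755). *ife-2*, which codes for a cap-binding factor, had 72.3, 65.9 and 64.8 TPM, against 70.8, 61.2 and 72.6 TPM, with overlapping groups. *icd-2*, which encodes the alpha subunit of the nascent-polypeptide associated complex at the ribosome's exit, fell to 1323.9, 1160.2 and 1021.3 TPM in rnst-2-sired females, against 1771.6, 1592.6 and 1665.0 TPM in WT-sired females (−0.53, SE 0.11, adjusted p = 0.0459). Among 23 ribosome biogenesis genes 2 rose, *nol-16* and *rrp-8*, and of 30 tRNA synthetase genes 1 did, *rars-2*, against 6.9% of all genes. In those lists 4 and 1 did not overlap downwards, against 4.27%, and 10 and 6 upwards, against 35.2%.

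Mitochondrial ribosomal proteins, which translate the few proteins of the mitochondrial genome, differed in direction from the cytosolic ones in TPM. Of 70 tested 10 rose, against 6.9% of all genes, none fell and 46 did not overlap upwards, against 35.2%. Their sums were 4950.6, 4882.7 and 4828.6 TPM in rnst-2-sired females, against 4011.4, 4233.4 and 3926.6 TPM in WT-sired females. The median log2 fold change, 0.27, was close to the 0.22 of all genes, and it was −0.01 under median-of-ratios scaling. *mrpl-23* had 47.4, 51.6 and 63.95 TPM in rnst-2-sired females, against 27.5, 32.5 and 28.02 TPM in WT-sired females (0.86, SE 0.14, adjusted p = 0.0456). *mrps-24* had 107.9, 115.1 and 108.5 TPM, against 69.7, 76.2 and 61.2 TPM (0.68, SE 0.11, adjusted p = 0.0456).

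Heat shock proteins, the chaperones that refold or hold damaged proteins, are of interest because the study followed heat survival in the offspring. None of the 14 tested of 23 *hsp-* genes passed the test, against 6.9% of all genes called higher and 0.275% lower. Of the 14, 1 did not overlap upwards, against 35.2% of all genes, and 2 downwards, against 4.27%. Under median-of-ratios scaling 8 did not overlap downwards, against 19.7%, and 1 upwards, against 14.4%. The sum over all 23 was 3001.8, 3329.8 and 2731.4 TPM in rnst-2-sired females, against 3350.5, 3891.1 and 4156.6 TPM in WT-sired females, without overlap. *hsp-90* and *hsp-1*, both of the cytosol, carried most of that sum. *hsp-90* had 1090.9, 1113.1 and 882.0 TPM in rnst-2-sired females, against 1217.7, 1421.0 and 1507.8 TPM in WT-sired females (−0.43, SE 0.13, adjusted p = 0.0703). *hsp-1*, the constitutive Hsp70, had 1040.3, 1239.6 and 943.7 TPM, against 1277.8, 1434.6 and 1494.3 TPM (−0.39, SE 0.12, adjusted p = 0.0793). The mitochondrial *hsp-75* lay the other way, with 29.4, 36.8 and 36.4 TPM in rnst-2-sired females, against 19.02, 25.7 and 26.6 TPM in WT-sired females (0.51, SE 0.16, adjusted p = 0.0848). The heat-inducible genes were barely present in either group: *hsp-16.2* had 1.97, 1.08 and 1.58 TPM, against 3.13, 1.76 and 0.75 TPM, and *hsp-70* had 1.35, 0.71 and 1.45 TPM, against 1.87, 1.29 and 2.00 TPM. The median log2 fold change of the 14 genes was −0.11 in TPM and −0.39 under median-of-ratios scaling. The study grouped the *hsp-* genes on these libraries too.

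The co-chaperones of Hsp70 with a DnaJ domain lay above 0 in the median. Of 29 *dnj-* genes 4 rose, against 6.9% of all genes, none fell and 14 did not overlap upwards, against 35.2%, with a median log2 fold change of 0.35 in TPM and 0.08 under median-of-ratios scaling. *dnj-22* had 43.4, 45.5 and 48.9 TPM in rnst-2-sired females, against 25.6, 30.9 and 29.4 TPM in WT-sired females (0.67, SE 0.11, adjusted p = 0.0456), and *dnj-10*, *dnj-15* and *dnj-16* were called as well. No member of the CCT chaperonin, which folds actin and tubulin, passed among 8 (median −0.12 in TPM). Nor did any of 13 genes of protein folding in the endoplasmic reticulum (median −0.02). Among all genes 6.9% were called higher and 0.275% lower.

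**Figure D3:**
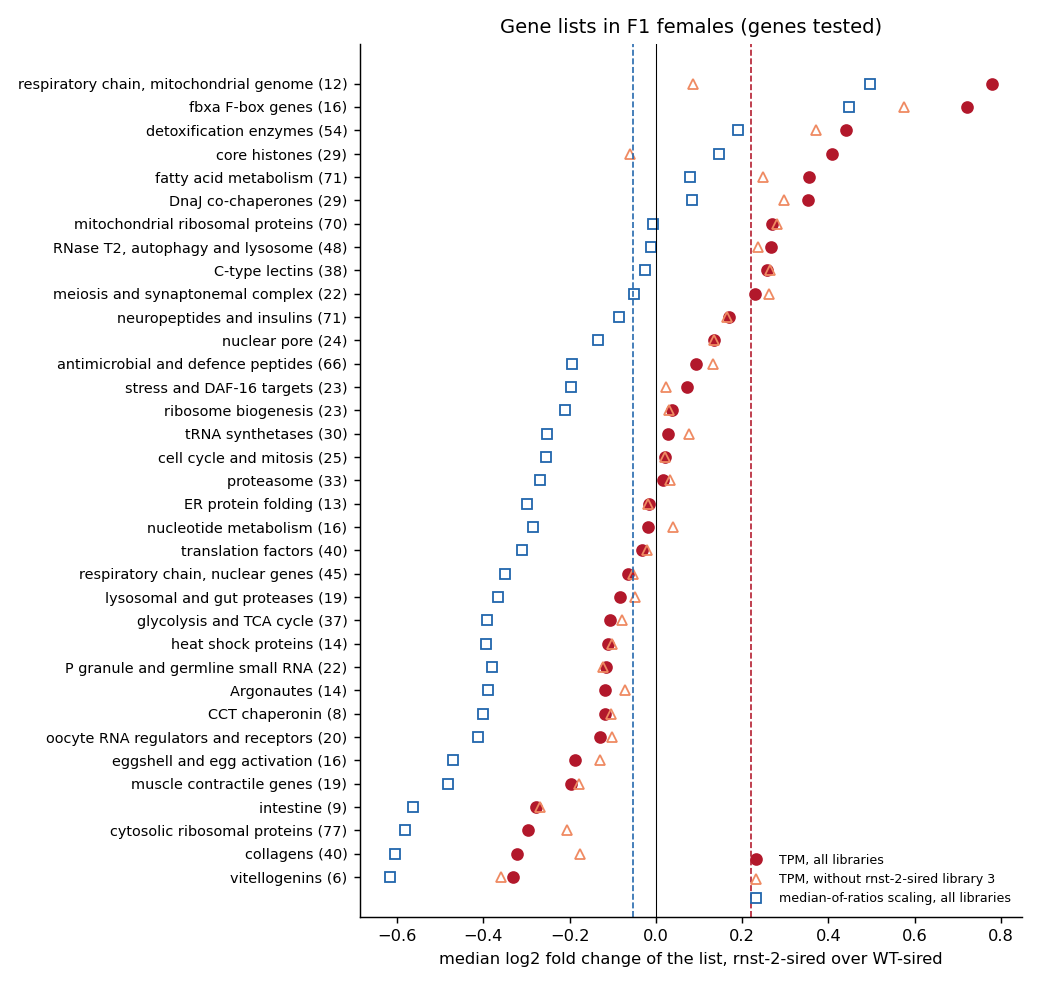
Median log2 fold change (rnst-2-sired over WT-sired, horizontal axis) of each gene list with at least 6 genes tested, in TPM (filled circles), in TPM without rnst-2-sired library 3 (triangles) and under median-of-ratios scaling (squares); the number of genes tested follows each name, and dashed lines are the medians of all genes, 0.22 in TPM and −0.05 after scaling. The order of the lists is much the same on both scales, the mitochondrial genome and the core histones move most without library 3, and cytosolic ribosomal proteins stay near the lower end.

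Enzymes that detoxify foreign and endogenous small molecules were among the lists highest above the median of all genes. Of 54 tested of 193 such genes 8 rose, against 6.9% of all genes, and none fell. Of the 54, 28 did not overlap upwards, against 35.2%, and the median log2 fold change was 0.44 in TPM and 0.19 under median-of-ratios scaling. Members of the UDP-glucuronosyltransferase family, which attach sugars to lipophilic compounds, had 5 of 15 tested called higher, against 6.9% of all genes, and 11 not overlapping upwards, against 35.2%, with a median of 0.84 in TPM and 0.57 after scaling. Their sums over all 66 *ugt-* genes were 368.6, 401.9 and 540.4 TPM in rnst-2-sired females, against 208.02, 246.4 and 251.2 TPM in WT-sired females. *ugt-44* had 18.8, 20.1 and 24.2 TPM in rnst-2-sired females, against 7.04, 5.89 and 5.63 TPM in WT-sired females (1.61, SE 0.16, adjusted p = 0.0286). After median-of-ratios scaling its log2 fold change was 1.35 (adjusted p = 0.0853), and in TPM its adjusted p ranged between 0.0464 and 0.118 as each library was left out. *ugt-22* had 89.2, 92.3 and 112.1 TPM, against 42.9, 55.8 and 60.2 TPM (0.88, SE 0.16, adjusted p = 0.0456), and *ugt-41*, *ugt-53* and *ugt-62* were called too. Cytochrome P450 genes, which oxidise such compounds, had 3 of 19 called, *cyp-25A1*, *cyp-25A2* and *cyp-44A1*, against 6.9% of all genes, and 13 not overlapping upwards, against 35.2%. *cyp-25A1* had 28.1, 24.4 and 39.4 TPM in rnst-2-sired females, against 12.9, 13.3 and 17.2 TPM in WT-sired females (1.01, SE 0.20, adjusted p = 0.0456). Of 19 glutathione S-transferase genes none passed, against 6.9% of all genes called higher. Their sums, 2400, 2816 and 1921 TPM in rnst-2-sired and 2328, 2319 and 2232 TPM in WT-sired females, overlapped.

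Genes of fatty acid metabolism were called at shares near those of all genes. Of 71 tested 7 rose, against 6.9% of all genes, none fell and 29 did not overlap upwards, against 35.2%, with a median log2 fold change of 0.35 in TPM and 0.08 under median-of-ratios scaling. The sums over all 109 such genes were 8799, 8755 and 9725 TPM in rnst-2-sired females, against 7696, 7620 and 8086 TPM in WT-sired females. *elo-5*, an elongase of branched-chain fatty acids, had 72.9, 90.4 and 101.5 TPM in rnst-2-sired females, against 43.3, 50.4 and 43.8 TPM in WT-sired females (0.92, SE 0.15, adjusted p = 0.0456). The desaturase genes *fat-3* and *fat-4*, which act in the making of polyunsaturated fatty acids, rose by 0.62 and 0.80 on the log2 scale. *lbp-2*, which encodes a lipid-binding protein, had 562.9, 586.8 and 503.8 TPM in rnst-2-sired females, against 361.8, 365.8 and 350.0 TPM in WT-sired females (0.61, SE 0.09, adjusted p = 0.0456), and after scaling its groups overlapped. *lbp-4*, *dhs-3* and *dhs-20* were called higher as well, the last with overlapping groups after scaling. *pnk-1*, which encodes pantothenate kinase of coenzyme A synthesis, had 50.9, 53.5 and 63.9 TPM, against 28.7, 32.5 and 33.02 TPM (0.81, SE 0.13, adjusted p = 0.0456).

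Defence genes gave calls in both directions. *lys-1*, a lysozyme of the intestine, had 749.1, 777.7 and 776.7 TPM in rnst-2-sired females, against 509.1, 481.0 and 490.9 TPM in WT-sired females (0.64, SE 0.08, adjusted p = 0.0422). *lys-2* had 356.8, 319.3 and 338.0 TPM, against 252.8, 198.5 and 208.01 TPM (0.63, SE 0.12, adjusted p = 0.0456), with overlap after median-of-ratios scaling. The C-type lectin gene *clec-190* had 45.6, 52.5 and 55.5 TPM in rnst-2-sired females, against 26.1, 23.5 and 21.4 TPM in WT-sired females (1.08, SE 0.13, adjusted p = 0.0422). *clec-41* was the other of 2 lectin genes called among 38, against 6.9% of all genes called higher. The caenacin gene *cnc-2*, which encodes an antimicrobial peptide, fell to 57.5, 48.8 and 55.3 TPM in rnst-2-sired females, against 87.8, 94.5 and 89.9 TPM in WT-sired females (−0.74, SE 0.10, adjusted p = 0.0456), and it had an adjusted p of 0.0715 after scaling. *nlp-34*, another peptide gene of that kind, had 7.56, 23.6 and 26.9 TPM, against 76.8, 161.4 and 39.1 TPM, and its wide spread left it at an adjusted p of 0.0647. Of all 66 antimicrobial and defence genes 3 rose, *lys-1*, *lys-2* and *dod-23*, against 6.9% of all genes, and 1 fell, against 0.275%.

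**Figure D4:**
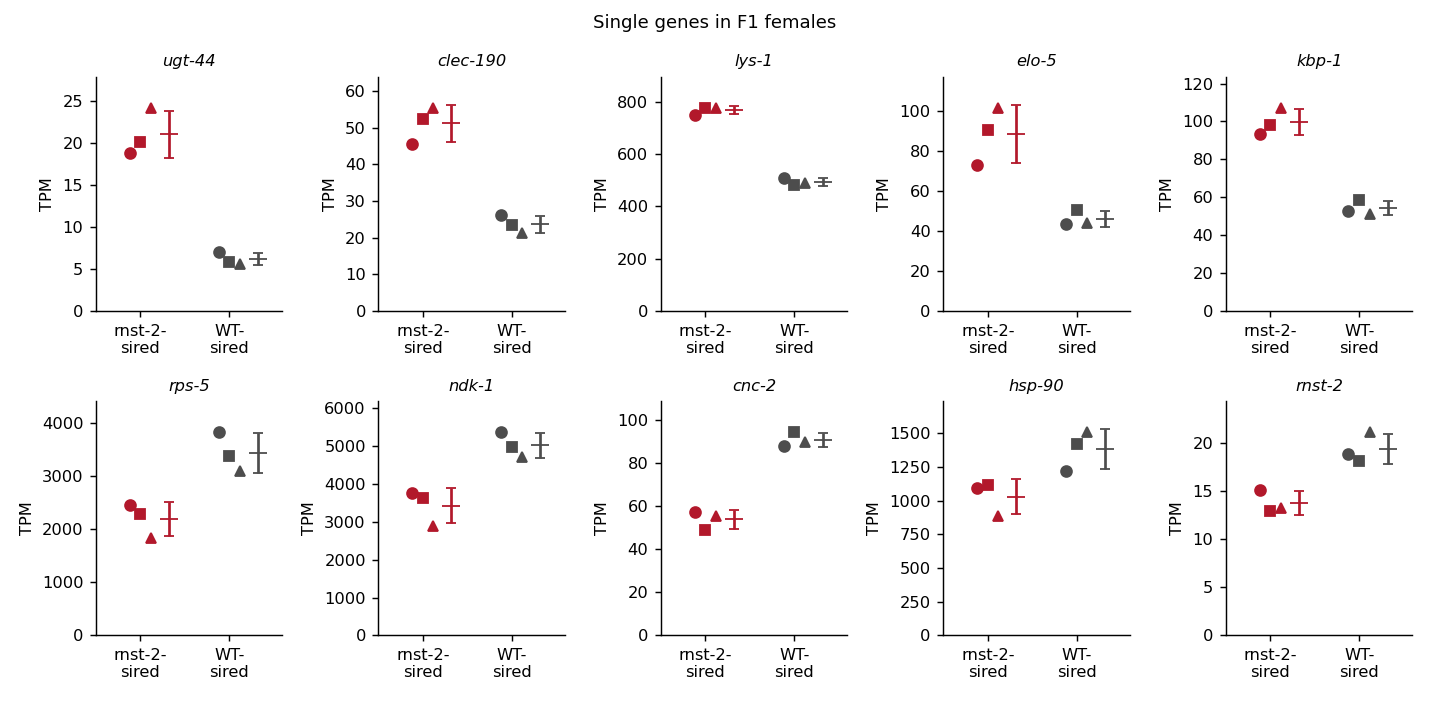
TPM of 10 genes in each F1 female library (symbols, 1 per library; bars are mean ± SD, n = 3), rnst-2-sired left of WT-sired, each vertical axis starting at 0. The groups do not overlap in any panel; *ugt-44*, *clec-190*, *lys-1*, *elo-5* and *kbp-1* are higher and *rps-5*, *ndk-1*, *cnc-2*, *hsp-90* and *rnst-2* lower in rnst-2-sired females, with *hsp-90* and *rnst-2* short of the threshold.

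The lysosome and autophagy, the setting in which RNase T2 works, had 3 of 48 genes called higher, a share near the 6.9% of all genes, and none lower, with 21 not overlapping upwards, against 35.2%. *lgg-1*, the worm's Atg8 protein of the autophagosome membrane, had 810.2, 701.6 and 895.2 TPM in rnst-2-sired females, against 551.8, 546.7 and 595.1 TPM in WT-sired females (0.50, SE 0.11, adjusted p = 0.0473), with overlap after median-of-ratios scaling. *atg-13*, of the complex that starts autophagy, had 26.04, 25.6 and 32.95 TPM, against 10.7, 17.4 and 16.6 TPM (0.90, SE 0.20, adjusted p = 0.0477). The proton pump subunit gene *vha-18* had 39.9, 46.99 and 50.7 TPM, against 23.5, 30.1 and 28.5 TPM (0.72, SE 0.14, adjusted p = 0.0456). The median log2 fold change of the 48 genes, 0.27, was close to that of all genes, and it was −0.01 after scaling.

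Nuclear genes of energy and nucleotide metabolism had list medians below the median of all genes. Of 37 genes of glycolysis and the TCA cycle 1 fell, against 0.275% of all genes, none rose, and 9 did not overlap downwards, against 4.27%. The one that fell, *gpd-1*, encodes a glyceraldehyde-3-phosphate dehydrogenase and had 528.9, 520.2 and 449.2 TPM in rnst-2-sired females, against 694.8, 629.6 and 726.5 TPM in WT-sired females (−0.45, SE 0.10, adjusted p = 0.0477). Since *gpd-1* and *gpd-4* are near-identical copies, the share of reads given to each is uncertain. *gpd-4* had 267.3, 275.6 and 234.3 TPM, against 359.1, 314.5 and 370.4 TPM (adjusted p = 0.0561). Of 16 genes of nucleotide metabolism 1 fell, against 0.275% of all genes, and none rose. Their median log2 fold change was −0.02, with 3 not overlapping downwards, against 4.27%, and 4 upwards, against 35.2%. The one that fell, *ndk-1*, a nucleoside diphosphate kinase, had 3747.3, 3628.6 and 2897.4 TPM in rnst-2-sired females, against 5369.4, 4977.4 and 4715.6 TPM in WT-sired females (−0.56, SE 0.11, adjusted p = 0.0459). Of 45 nuclear genes of the respiratory chain 1 rose, *nuo-4*, against 6.9% of all genes, and none fell, against 0.275%. In that list 13 did not overlap downwards, against 4.27% of all genes, and 11 upwards, against 35.2%. The 12 protein genes of the mitochondrial genome summed to 3550, 2654 and 12363 TPM, against 3026, 1892 and 3466 TPM: their median log2 fold change of 0.78 was 0.09 without library 3, and none was called.

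The germline of an unmated female is packed with oocytes. Of 20 oocyte RNA regulators and receptors and of 16 eggshell and egg activation genes none passed. Their medians were −0.13 and −0.19 in TPM. Among all genes 6.9% were called higher and 0.275% lower. In those lists 3 and 5 did not overlap downwards, against 4.27% of all genes, and 0 and 2 upwards, against 35.2%. The yolk receptor gene *rme-2* had 274.0, 269.6 and 231.4 TPM in rnst-2-sired females, against 284.3, 313.0 and 348.0 TPM in WT-sired females (adjusted p = 0.141). The vitellogenins, yolk proteins made by the intestine, varied within both groups: *vit-2* had 1050.2, 1681.2 and 1454.7 TPM, against 1242.3, 1904.1 and 2387.5 TPM. Genes of the P granules and germline small RNA pathways (22), Argonautes (14), meiosis (22) and a cell-cycle list (25) also held no gene past the threshold. Of them 5, 1, 9 and 5 did not overlap upwards, against 35.2% of all genes, and 2, 1, 1 and 1 downwards, against 4.27%. Outside those lists, *par-2*, a gene of embryonic polarity, fell to 24.5, 25.4 and 25.6 TPM in rnst-2-sired females, against 33.4, 38.9 and 37.5 TPM in WT-sired females (−0.52, SE 0.11, adjusted p = 0.0459). The beta tubulin gene *tbb-1* had 521.3, 514.6 and 442.9 TPM, against 675.0, 638.0 and 723.6 TPM (−0.46, SE 0.10, adjusted p = 0.0472).

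Among the other named genes called higher, with an adjusted p that many called genes shared, *kbp-1*, a kinetochore component, had 93.6, 98.2 and 107.3 TPM in rnst-2-sired females, against 52.96, 58.5 and 51.4 TPM in WT-sired females (0.86, SE 0.11, adjusted p = 0.0456). *san-1*, of the spindle checkpoint, had 49.7, 54.3 and 56.7 TPM, against 29.5, 33.8 and 32.8 TPM (0.72, SE 0.11, adjusted p = 0.0456). *rbbp-5*, of the complex that methylates histone H3 at lysine residues near promoters, had 32.01, 34.5 and 30.5 TPM, against 16.6, 19.5 and 20.2 TPM (0.76, SE 0.12, adjusted p = 0.0456). The Jumonji-domain gene *jmjd-5* was called higher as well, by 0.73 on the log2 scale, and so were the astacin protease gene *nas-20* by 1.37, *ttr-47* by 0.58, *ule-4* by 0.77, *mau-8* by 0.73 and *pqn-94* by 0.94. Of 16 *fbxa-* F-box genes tested 3 rose, *fbxa-206*, *fbxa-210* and *fbxa-215*, against 6.9% of all genes, and 14 did not overlap upwards, against 35.2%, with a median of 0.72 in TPM and 0.45 under median-of-ratios scaling. Their sums over 221 *fbxa-* genes were 357.9, 439.7 and 561.4 TPM in rnst-2-sired females, against 221.6, 270.5 and 258.7 TPM in WT-sired females. The 29 core histone genes tested held no call, against 6.9% of all genes called higher. Their median of 0.41 was −0.06 without library 3.

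Genes of the body outside the germline were described by 4 further lists. None of 40 collagen genes passed, against 6.9% of all genes called higher and 0.275% lower. Of the 40, 8 did not overlap downwards, against 4.27% of all genes. Their median log2 fold change was −0.32, or −0.18 without library 3. Of 19 contractile genes of muscle 1 rose, the troponin gene *tni-4*, against 6.9% of all genes. Most lay the other way, with 15 of the 19 below 0 and a median log2 fold change of −0.20. The myosin gene *unc-54* had 59.9, 111.4 and 76.1 TPM in rnst-2-sired females, against 84.1, 134.1 and 145.7 TPM in WT-sired females. Among 23 stress genes, many of them targets of the transcription factor DAF-16, 1 rose, against 6.9% of all genes. It was the cadmium-responsive *cdr-2*, with 43.5, 49.1 and 69.1 TPM, against 26.5, 23.3 and 24.09 TPM (1.07, SE 0.18, adjusted p = 0.0456). Of 4 genes tested for the spermatheca, sheath and uterus 1 rose, against 6.9% of all genes: *inx-9*, a gap junction gene of the sheath. *swm-1*, a protease inhibitor known from male reproduction, had 56.2, 46.4 and 63.2 TPM in rnst-2-sired females, against 29.8, 38.6 and 32.8 TPM in WT-sired females (0.69, SE 0.15, adjusted p = 0.0477).

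Among genes called higher, the largest differences were in short genes without a gene name, listed at 0 in every WT-sired library. *C41C4.11*, a small nucleolar RNA gene, had 79.6, 50.99 and 186.8 TPM in rnst-2-sired females and was listed at 0 in all 3 WT-sired ones (adjusted p = 0.00761). *F44E2.12* had 54.5, 60.5 and 242.2 TPM and *R10E11.13* had 33.02, 113.1 and 38.4 TPM in rnst-2-sired females, and both non-coding RNA genes were listed at 0 in WT-sired females (adjusted p = 0.0108 for each). These 3 genes were the ones that passed after median-of-ratios scaling. *Y53F4B.47* and *ZK265.11* were also listed at 0 in WT-sired females, and most of their signal came from library 3, at 578.9 and 1883.5 TPM against 17.3 to 24.3 TPM in the other rnst-2-sired libraries. In the other direction *Y46E12BL.11* had 0, 4.76 and 0 TPM, against 13.04, 15.2 and 21.5 TPM, and *Y41G9A.10* had 9.67, 8.94 and 15.2 TPM, against 29.8, 25.9 and 20.0 TPM. *R10E11.13* lies within *cbp-1*, *F44E2.12* within *F44E2.8* and *Y46E12BL.11* within *spsb-1*. *C41C4.11* overlaps the non-coding RNA gene *C41C4.15*, listed at 0 in every female library, and *ZK265.11* overlaps *ceh-8*. Whether the counting used strand is not given in the sources used here, so the reads given to each of a pair are uncertain. The libraries were made from polyadenylated RNA, and small nucleolar RNAs mostly carry no poly(A) tail, and an exact 0 in estimated values can be a failed estimate.

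The F1 males give a second set of libraries with the same sire genotypes, and fewer genes passed there. Of 7037 genes tested in males 3 were higher (0.0426%) and none lower (0.0%) when the sire was mutant, with 310 at an unadjusted p under 0.05, and the median log2 fold change was −0.02. Of the 527 genes called higher in females 322 were also tested in males, and 182 of those lay above 0 there. Of the 21 called lower 20 were tested in males, and 18 lay below 0, where 53.9% of all genes tested in males did. Cytosolic ribosomal proteins lay lower with mutant sires in males too: 43 of 78 did not overlap downwards in males, against 6.71% of all genes, and 1 did so upwards, against 3.14%. Their sums were 122305, 131072 and 137395 TPM in rnst-2-sired males, against 148263, 146046 and 152668 TPM in WT-sired males. The study grouped these genes in the males as well, so their direction there is not independent evidence. Whether the males and females came from the same crosses is not given in the sources used here. The difference between the sexes in the sire effect was tested over all 12 libraries. It passed for 2 genes higher in females (0.0231%) and 3 lower (0.0347%) of 8642, with 1150 at an unadjusted p under 0.05. No ribosomal protein gene was called there, and 3 of 78 had an unadjusted p under 0.05. For mitochondrial ribosomal proteins 24 of 70 did, with a median difference of 0.34 against 0.19 for all genes, and no call. *lys-1* had 442.1, 488.5 and 545.9 TPM in rnst-2-sired males, against 450.9, 525.5 and 615.3 TPM in WT-sired males, and the difference between the sexes had an adjusted p of 0.153.

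**Figure D5:**
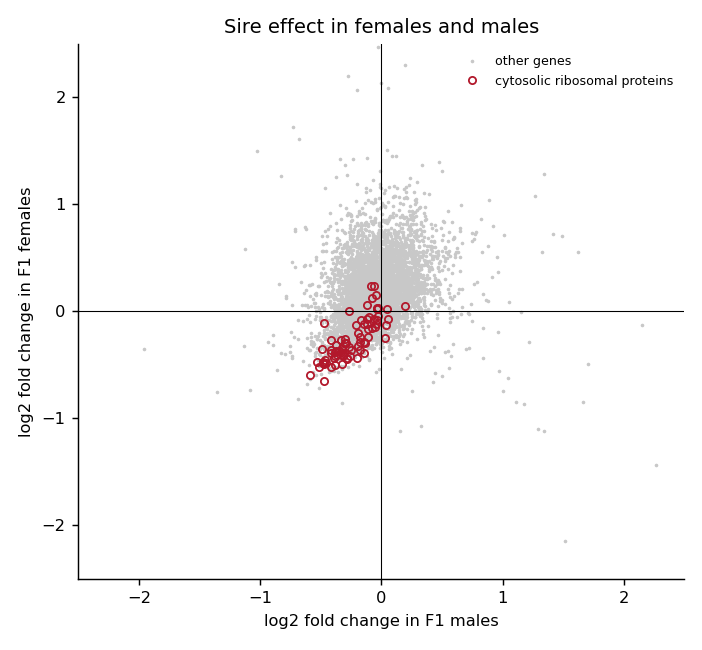
Log2 fold change by sire (rnst-2 mutant over WT) in F1 females (vertical axis) against that in F1 males (horizontal axis) for 5062 genes tested in both sexes and above 0 in every female library, with 6 genes beyond the axes; red circles are the 77 cytosolic ribosomal proteins and grey points are other genes. Of the 77, 63 lie below 0 in both sexes, as do 20.8% of the other genes.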

How the data were processed

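Poly(A) mRNA of F1 adults was sequenced as paired reads from a stranded kit. Per the methods, the authors aligned reads with STAR to WS245 and estimated TPM with RSEM (versions not given in the sources used here). The deposited values are TPM plus 1, of a kind classed as other here, and the 1 was subtracted. The 47639 transcript rows were summed to 46712 genes. TPM keeps no depth. The main test was limma 3.58.1 (trend) in R 4.3.3 on log2(TPM + 1), Benjamini-Hochberg adjusted over genes averaging 5 TPM or more, at a threshold of 0.05; fold changes are on that scale and understate those of low genes. Median-of-ratios factors used 12264 genes. No label says that libraries came from separate cultures, so p-values measure the spread between these samples only. Tables used Python 3.11.15, numpy 2.4.6 and pandas 2.3.3.

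The comparison, members and lists were chosen with earlier results of these data known. Genes are named by a rule: up to 15 per direction by adjusted p and up to 5 by fold change among called genes without overlap that kept their direction under each scaling, up to 8 members per direction of each list by p, and *rnst-2*, *fog-2*, *ife-2*, *hsp-* genes and markers always. Sequence and coordinates came from RefSeq, WBcel235. Alternatives were a pseudocount of 0.1, other filters, scalings and sets of libraries, a replicate block, and the rule of the study's methods. On simulated data 47 of 100 genes changed by 1 and 94 of 100 changed by 2 (log2) were found among 7635, with 7 false calls. The simulation drew independent noise for each gene, with the real spreads shuffled among genes. It held no shift common to a library and no library that stood apart, so its false calls do not measure those of the real data.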

Additional observations from a re-analysis of the deposited data

Results flagged for a closer look

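The sire effect differed between F1 females and F1 males in 5 short or unnamed genes by the test of the difference itself, given as the fitted difference of log2(TPM + 1) fold changes, which depends on the added 1 where values are 0. *C41C4.11* (difference 6.53) and *R10E11.13* (5.74) had the female values given above and were listed at 0 in all 6 male libraries. *F20D12.12* (−8.98) had 434.4, 361.1 and 241.8 TPM in rnst-2-sired females, against 942.3, 328.2 and 1239.4 TPM in WT-sired females, and 140.9, 239.2 and 373.7 TPM in rnst-2-sired males, with 0 in every WT-sired male. *Y69A2AR.24* (−7.35) and *Y69A2AR.50* (−6.70) were listed at 0 in all female libraries and in WT-sired males, with 112.7 to 196.7 TPM and 58.02 to 299.3 TPM in rnst-2-sired males.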

How the results depend on the processing

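Counts of called genes in F1 females, 527 higher and 21 lower, depended on the processing. A pseudocount of 0.1 gave 561 and 22, leaving out rRNA genes 599 and 30, and leaving out vitellogenin genes 456 and 20. A minimum of 1 TPM gave 7 higher and 0 lower, no filter 5 and 0, and median-of-ratios scaling 3 and 0. Leaving out ribosomal protein genes and rescaling gave 5 and 0, and fitting all 12 F1 libraries 58 and 4. The rule of the study's methods (unadjusted p of at most 0.01, log2 fold change over 1) gave 11 and 1. That rule was run here on TPM plus 1 and only on genes averaging 5 TPM or more, a filter the study's methods do not state. Keeping nuclear protein-coding genes only, chosen after seeing the data, gave 951 and 62. Leaving out 1 library gave 0 to 12 higher and 0 to 2 lower: none without WT-sired library 1 or 3, 2 higher without WT-sired library 2, and 7, 6 and 12 higher without rnst-2-sired libraries 1, 2 and 3. With median-of-ratios scaling, added after seeing the data, this gave 0 to 9 higher and 0 to 2 lower. Among combinations of a named gene and an alternative, 1296 of 2095 lost the call. Of the 88 genes counted 72 were called, and the others had no call to lose. None turned the direction of a called gene, but a direction kept under each scaling was part of the naming rule. The cause of each change was not tested.

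The labels number the replicates alike in both groups, but nothing says that a number is shared stock or day, and deviations from the group means correlated at 0.25, 0.075 and 0.143, so the numbers were not taken as pairs. Each library correlated best with its own number, a hint from the data only. With a replicate block 1225 genes were higher and 83 lower, and with median-of-ratios scaling as well 5 and 0.

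For the difference between the sexes, 2 genes higher and 3 lower in females, a pseudocount of 0.1 gave 6 and 3, a minimum of 1 TPM 5 and 3, median-of-ratios scaling 2 and 3, and the replicate block 3 and 3. Leaving out 1 of the 12 libraries gave 2 to 12 higher and 3 to 6 lower.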
